A study of Mus musculus with 6 samples.

Results

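Immediate early genes are the genes that a neuron transcribes first when it is strongly stimulated, without any need for new protein. Calcium entry and kinase signalling act on factors such as CREB and SRF that already sit at their promoters, and the transcripts are short-lived, so that their level in brain follows recent activity and stimulation. Most of them encode transcription factors, among them the AP-1 proteins Fos, Fosb and Junb, the zinc finger proteins Egr1 and Egr2, the orphan nuclear receptor Nr4a1 and the neuronal factor Npas4. Others act directly, such as Arc at the synapse and Btg2 on mRNA decay and cell growth. The 10 genes described here are Fos, Fosb, Junb, Egr1, Egr2, Arc, Npas4, Btg2, Nr4a1 and Ier2, taken by name from the platform annotation, out of 19938 genes that a transcript cluster names alone. A transcript cluster groups the array's probes for 1 transcribed locus, and each of the 10 genes had 1 cluster.

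Whole brain RNA from male C57BL/6 mice, bought at 7 to 8 weeks of age and acclimatised before treatment, was hybridized to Affymetrix Mouse Gene 1.0 ST arrays. In 1 group, 3 mice had received LPS from Escherichia coli serotype 055:B5 (4 mg/kg, i.p.), and in the other 3 mice had received PBS as vehicle. All brains were taken 48 hours after injection, with 1 array per mouse, and the methods state that mice were perfused with PBS. No later or earlier time was measured on these arrays, and no region of the brain was separated. In whole tissue, fewer cells that express a gene and less RNA per cell cannot be told apart.

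Values are log2 expression after robust multichip average (RMA) normalization, so that a difference of 1 is a 2-fold change. Array medians lay between 6.95 and 7.11. In a principal component analysis, 54.5% of the variance lay on a first axis that set LPS replicates 1 and 2 away from the remaining 4 arrays, and these had the highest medians, 7.09 and 7.11. In the limma test over 35556 transcript clusters, 0.714% were called higher or lower at an adjusted p under 0.05, with 232 higher (0.652%) and 22 lower (0.0619%). As a gauge of background, the genes of olfactory and vomeronasal receptors, with little transcription expected in brain, had array medians from 5.67 to 5.81, and their 95th percentile lay between 6.46 and 6.64. The neuronal gene Snap25, which encodes a SNARE protein of synaptic vesicle release, lay between 13.46 and 13.71 on the 6 arrays.

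Promoter sequence was available for 7 of the 10 genes. The 250 bases before an annotated start are shown for Npas4 and Btg2, because these were the genes whose LPS and PBS arrays did not overlap, and for Fos, Nr4a1 and Fosb, whose arrays overlapped. Sequences are from RefSeq on GRCm38.p6, written 5′ to 3′ on the strand of the gene, and capitals mark the half-site of the cAMP response element (CRE), TGACG or its reverse complement CGTCA, the motif that CREB binds. The windows are chr1:134079156-134079405 on the minus strand for Btg2, chr19:4989972-4990221 on the minus strand for Npas4, chr12:85473640-85473889 on the plus strand for Fos, chr15:101266596-101266845 on the plus strand for Nr4a1 and chr7:19310046-19310295 on the minus strand for Fosb.
Btg2: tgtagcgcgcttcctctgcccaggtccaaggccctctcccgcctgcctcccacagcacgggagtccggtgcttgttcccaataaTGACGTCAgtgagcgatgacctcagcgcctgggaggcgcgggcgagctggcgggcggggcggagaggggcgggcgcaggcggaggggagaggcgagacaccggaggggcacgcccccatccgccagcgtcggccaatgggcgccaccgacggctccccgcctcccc
Npas4: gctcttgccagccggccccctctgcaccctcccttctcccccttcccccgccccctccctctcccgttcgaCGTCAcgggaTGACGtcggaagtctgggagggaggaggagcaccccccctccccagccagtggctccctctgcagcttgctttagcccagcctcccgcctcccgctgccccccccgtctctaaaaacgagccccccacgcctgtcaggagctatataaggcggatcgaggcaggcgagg
Fos: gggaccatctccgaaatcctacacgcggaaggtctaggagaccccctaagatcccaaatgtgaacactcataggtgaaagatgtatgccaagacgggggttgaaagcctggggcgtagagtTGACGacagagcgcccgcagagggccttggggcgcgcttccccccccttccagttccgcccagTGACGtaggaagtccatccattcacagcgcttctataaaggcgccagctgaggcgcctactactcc
Nr4a1: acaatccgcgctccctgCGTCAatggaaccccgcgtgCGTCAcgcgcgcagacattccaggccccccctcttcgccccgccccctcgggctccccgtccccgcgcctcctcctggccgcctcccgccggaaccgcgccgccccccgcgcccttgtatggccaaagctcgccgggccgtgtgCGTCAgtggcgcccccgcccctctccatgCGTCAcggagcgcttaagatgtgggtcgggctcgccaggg
Fosb: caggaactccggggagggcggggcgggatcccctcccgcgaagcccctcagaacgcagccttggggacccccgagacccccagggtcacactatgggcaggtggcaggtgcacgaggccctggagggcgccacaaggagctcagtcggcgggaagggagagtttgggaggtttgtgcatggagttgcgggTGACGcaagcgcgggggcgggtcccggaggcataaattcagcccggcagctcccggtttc

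The genes with an entry were these 5 with Junb and Egr2, and only Egr2 had several annotated starts among the windows. The windows of Npas4, Nr4a1 and Egr2 lie inside the annotated span of the gene, and that of Fosb lies partly inside it. These windows are therefore not before the outermost start. The half-site was present in 9 of the 11 windows of the 7 genes, with at least 1 such window for each gene, against 17.8% of the 32851 promoter windows of the same length. The windows are not independent, since the 6 half-site matches of Egr2 lie in overlapping windows and are 2 distinct sites. In Btg2 the half-sites on both strands overlap and form the full palindrome TGACGTCA, with its first base 166 bases before the start. The full palindrome was in 1.55% of all windows and, among the 7 genes, in Btg2 alone. In Npas4 the half-sites begin 179 and 169 bases before the start, without forming the full palindrome. Nr4a1 had 4 half-sites, Fos had 2 and Fosb had 1. The CArG box, the motif of SRF, was searched on both strands and was present in 4 overlapping or neighbouring windows of Egr2, which hold 2 distinct sites, and in no other member window, against 1.47% of all windows. These matches describe letters in the window, so that a window without a motif does not exclude a site farther upstream, which was not searched. Binding of a factor was not measured.

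None of the 10 genes passed the limma test of LPS-treated against PBS-treated mice (adjusted p from 0.0962 to 0.905), where 0.714% of all clusters did. After Benjamini-Hochberg adjustment the methods' t-test also called 0 of the 10. At an unadjusted p under 0.05 from limma, Npas4 and Btg2 were higher, which is 2 of 10 genes against 14.3% of all clusters at that level, 7.69% higher and 6.58% lower, and no member was lower. The mean of the LPS arrays was above that of the PBS arrays for 7 genes and below it for Fosb, Junb and Ier2, while 49.8% of all clusters had a mean difference above 0. The median difference of the 10 genes was 0.35 on the log2 scale, and the median of all clusters was -0.000925. The 3 LPS arrays lay above all 3 PBS arrays for Npas4 and Btg2, as they did for 9.73% of all clusters (20.0% in either direction), and the groups overlapped for the other 8 genes.

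**Figure D1:**
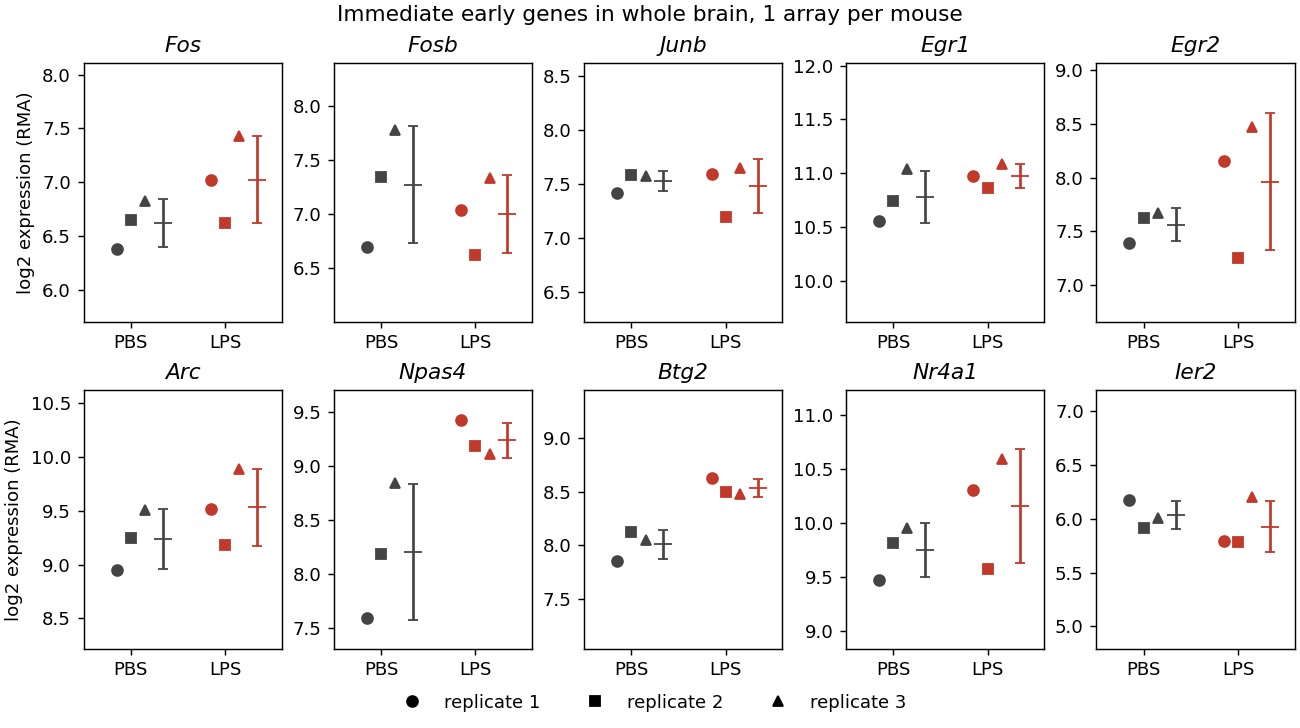
Log2 expression (RMA) of the 10 genes in the PBS mice (dark) and the LPS mice (red), with the replicate number as the symbol and the mean ± SD of 3 mice beside the points; every panel spans the same range of log2 units. Npas4 and Btg2 are the genes whose groups do not overlap, and in most other panels LPS replicate 2 is the lowest and LPS replicate 3 the highest LPS array.

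Npas4 encodes a neuronal bHLH-PAS transcription factor that responds to calcium entry and is known for its role in inhibitory synapses. The gene spans bases 4984353 to 5003439 of chromosome 19 (GRCm38.p6). Its log2 expression was 7.59, 8.18 and 8.85 in PBS replicates 1, 2 and 3, and 9.43, 9.19 and 9.11 in LPS replicates 1, 2 and 3. The LPS mice were close to each other, while the PBS mice were spread over 1.26 log2 units. PBS mice had a mean of 8.21 ± 0.63 (SD, n = 3) and LPS mice one of 9.24 ± 0.16 (SD, n = 3), a difference of 1.04 with a 95% confidence interval from 0.34 to 1.74. As a fold change this is 2.05, with an interval from 1.26 to 3.33 (adjusted p = 0.226 from limma). The standard deviation of Npas4 among the PBS mice was larger than that of 99.7% of all clusters, and its difference was 0.73 without PBS replicate 1 and 1.36 without PBS replicate 3. The highest PBS mouse lay 0.27 log2 units under the lowest LPS mouse.

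Btg2 encodes an antiproliferative protein that recruits mRNA deadenylases, and it responds to growth factors and to p53 as well as to neuronal activity. The gene spans bases 134074865 to 134079155 of chromosome 1 (GRCm38.p6). Its log2 expression was 7.86, 8.12 and 8.05 in PBS replicates 1, 2 and 3, and 8.63, 8.50 and 8.48 in LPS replicates 1, 2 and 3. The groups spanned 0.26 log2 units in PBS mice and 0.15 in LPS mice, and they were 0.35 log2 units apart at their nearest arrays. The standard deviation of Btg2 was larger than that of 66.3% of all clusters among the PBS mice and 26.3% among the LPS mice. PBS mice had a mean of 8.01 ± 0.14 (SD, n = 3) and LPS mice one of 8.53 ± 0.08 (SD, n = 3), a difference of 0.52 with a 95% confidence interval from 0.29 to 0.75, or a fold change of 1.44. The adjusted p of Btg2 was 0.0962 from limma, the smallest of the 10 genes. With limma refitted to the 21789 clusters that name 1 gene, the same difference passed (adjusted p = 0.0348 from limma, where 1.64% of clusters passed). That refit changes the spread estimate shared between clusters as well as the adjustment. Btg2 also passed without LPS replicate 3 (adjusted p = 0.0284 from limma, where 10.7% of clusters passed). With arrays weighted by their quality both Npas4 and Btg2 passed, where 23.4% of clusters did. With 3 mice per group, the exact two-sided permutation p was 0.1 for both Npas4 and Btg2, the smallest that this design allows.

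None of the AP-1 genes passed the test, and their differences had unlike signs. Fos, whose protein pairs with Jun proteins to form AP-1 and which is the usual histological marker of activated neurons, had log2 expression of 6.39, 6.65 and 6.82 in PBS replicates 1, 2 and 3, and 7.02, 6.63 and 7.43 in LPS replicates 1, 2 and 3. LPS replicates 1 and 3 were above every PBS mouse and LPS replicate 2 was within their range. The difference was 0.40 with a 95% confidence interval from -0.10 to 0.91 (adjusted p = 0.424 from limma), and it was 0.60 without LPS replicate 2 and 0.20 without LPS replicate 3. Fos lay above the 95th percentile of the receptor genes on 4 of the 6 arrays and Fosb on 5. Fosb, the closest relative of Fos, had values of 6.70, 7.35 and 7.78 in PBS replicates 1, 2 and 3, and 7.04, 6.62 and 7.34 in LPS replicates 1, 2 and 3. Here the lowest mouse was LPS replicate 2 and the highest was PBS replicate 3, with the groups overlapping over most of their range. The difference was -0.28 with an interval from -0.98 to 0.43 (adjusted p = 0.700 from limma), and it was -0.02 without PBS replicate 3 and -0.56 without PBS replicate 1. Junb, a Jun family partner of Fos, was the steadiest of these genes in PBS mice, with 7.41, 7.58 and 7.58 in PBS replicates 1, 2 and 3, and 7.60, 7.19 and 7.65 in LPS replicates 1, 2 and 3. Its difference was -0.04 with an interval from -0.37 to 0.28 (adjusted p = 0.905 from limma), or a fold change between 0.776 and 1.21, and the sign turned to 0.10 without LPS replicate 2.

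Egr1 and Egr2 encode zinc finger transcription factors that bind the same GC-rich motif, and Egr1 is widely used as a marker of synaptic plasticity. Egr1 had log2 expression of 10.56, 10.74 and 11.04 in PBS replicates 1, 2 and 3, and 10.98, 10.86 and 11.09 in LPS replicates 1, 2 and 3. The LPS mice lay at the upper end of the range of the PBS mice. The difference was 0.20 with a 95% confidence interval from -0.12 to 0.52 (adjusted p = 0.534 from limma), and it was 0.087 without PBS replicate 1 and 0.33 without PBS replicate 3. Egr2 had values of 7.39, 7.62 and 7.67 in PBS replicates 1, 2 and 3, and 8.16, 7.25 and 8.47 in LPS replicates 1, 2 and 3. For Egr2, LPS replicates 1 and 3 were above all PBS mice and LPS replicate 2 was below all of them, so that the LPS mice spanned 1.22 log2 units. The difference was 0.40 with an interval of the fold change from 0.811 to 2.14 (adjusted p = 0.563 from limma), and it was 0.75 without LPS replicate 2 and 0.14 without LPS replicate 3. The standard deviation of Egr2 among the LPS mice was larger than that of 97.7% of all clusters.

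Nr4a1, also known as Nur77, encodes an orphan nuclear receptor that is induced in neurons and in activated immune cells. Its log2 expression was 9.47, 9.82 and 9.96 in PBS replicates 1, 2 and 3, and 10.30, 9.57 and 10.59 in LPS replicates 1, 2 and 3. As with Egr2, LPS replicates 1 and 3 exceeded every PBS mouse, while LPS replicate 2 was near the lowest. The difference was 0.41 with a 95% confidence interval from -0.22 to 1.04 (adjusted p = 0.512 from limma), and it was 0.70 without LPS replicate 2 and 0.19 without LPS replicate 3. Arc, which acts at the synapse in the removal of AMPA receptors, had values of 8.95, 9.25 and 9.51 in PBS replicates 1, 2 and 3, and 9.52, 9.18 and 9.89 in LPS replicates 1, 2 and 3. Only LPS replicate 3 of Arc was clearly above the PBS mice. Its difference was 0.29 with an interval from -0.21 to 0.79 (adjusted p = 0.551 from limma), and it was 0.15 without PBS replicate 1, 0.47 without LPS replicate 2 and 0.11 without LPS replicate 3. Ier2, a nuclear protein induced by growth factors, had values of 6.17, 5.92 and 6.01 in PBS replicates 1, 2 and 3, and 5.79, 5.79 and 6.20 in LPS replicates 1, 2 and 3. Ier2 was under the 95th percentile of the receptor genes on all 6 arrays, so that it was not clearly above background, and its difference of -0.11 (adjusted p = 0.752 from limma) is hardly informative.

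**Figure D2:**
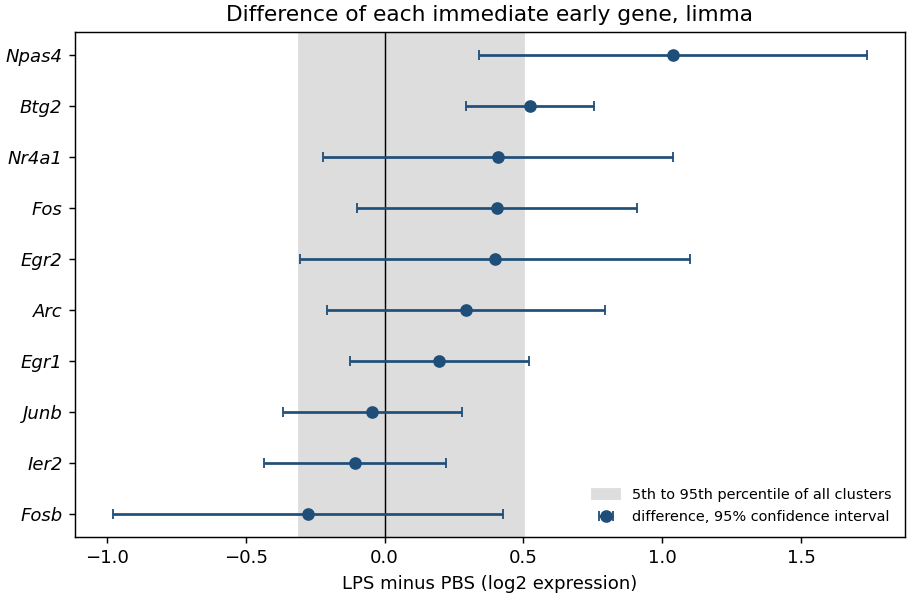
Difference of LPS minus PBS in log2 expression for each gene, with points for the limma estimate, bars for its 95% confidence interval and grey for the 5th to 95th percentile of the differences of all transcript clusters, -0.31 to 0.50. The intervals of Npas4 and Btg2 lie above 0 and those of the other 8 genes include 0.

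Within each group, most of the genes shared an order of the mice. PBS replicate 1 was the lowest PBS mouse in 9 of the 10 genes, all but Ier2, where 11367 of the 35556 clusters had it lowest. PBS replicate 3 was the highest PBS mouse in 7 genes, where 33.9% of all clusters had it highest. Among the LPS mice, replicate 2 was the lowest and replicate 3 the highest in the same 8 genes, all but Npas4 and Btg2, and over all clusters the shares were 33.5% and 39.2%. The median deviation of the 10 genes from the mean of the PBS mice was 0.34 in LPS replicate 1, -0.12 in LPS replicate 2 and 0.56 in LPS replicate 3, against -0.23, 0.04 and 0.21 in PBS replicates 1, 2 and 3. All 10 genes were above the mean of the PBS mice in LPS replicate 3, 8 were in LPS replicate 1 and 4 were in LPS replicate 2. The genes were measured on the same 6 arrays and are not independent of each other. The 2 LPS mice that stood apart on the principal component were alike in some of these genes and not in others. Relative to the PBS mean, LPS replicates 1 and 2 lay at 0.59 and -0.31 for Egr2 and at 0.55 and -0.18 for Nr4a1. The values were 0.07 and -0.33 for Junb and 0.28 and -0.06 for Arc. For Fos they were 0.40 and 0.006, and for Egr1 0.20 and 0.08. Both mice were above the PBS mean for Npas4 and Btg2, and both were below it for Fosb and Ier2. With both of those mice left out, and the remaining LPS mouse assumed to vary like the PBS mice, the difference was 0.91 for Egr2, 0.84 for Nr4a1, 0.81 for Fos and 0.65 for Arc, and none of the 10 genes passed (adjusted p from 0.147 to 0.971 from limma).

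**Figure D3:**
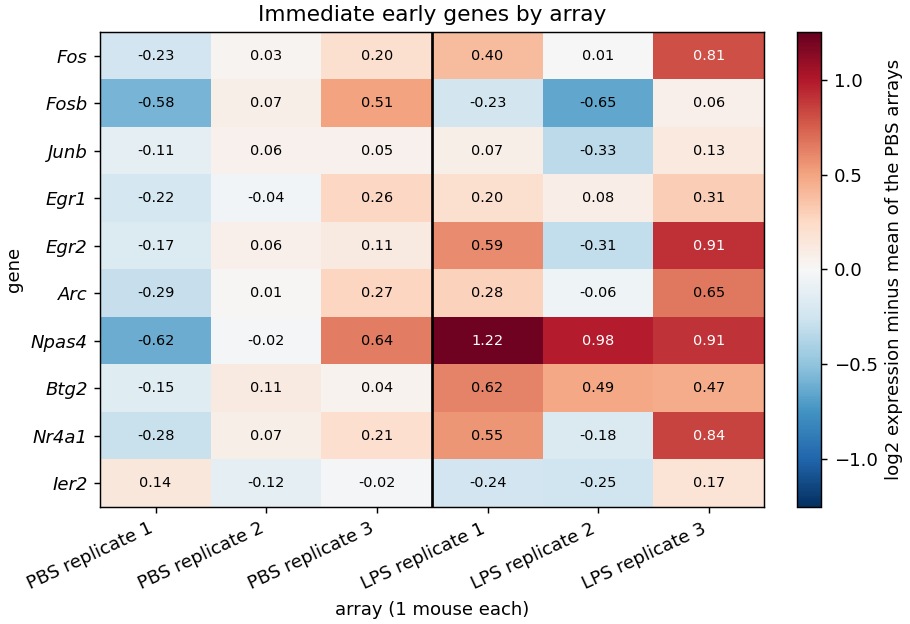
Deviation of each gene (rows) on each array (columns) from its PBS mean, in log2 units, with 1 mouse per column, red for higher and blue for lower, and the PBS arrays to the left of the line. Npas4 and Btg2 are red in all 3 LPS columns, and for 8 genes the LPS columns run from lowest in replicate 2 to highest in replicate 3.

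Other genes of the activity response were read from the same fit. Of 20 other inducible transcription factors, none passed the limma test (adjusted p from 0.372 to 0.996), none passed the methods' t-test or had an unadjusted p under 0.05 from limma, and their median difference was 0.03. Those with the smallest p were Ier5, a growth factor and stress response gene, at -0.40, Jund, a Jun protein that is expressed without stimulation, at -0.30, Nr4a3, a relative of Nr4a1, at 0.29, and Fosl1, a relative of Fos. Fosl1 lay under the median of the receptor genes on all 6 arrays, so that its difference is not informative. Of 28 listed activity-regulated effectors and feedback genes, 27 were measured and none passed (adjusted p from 0.187 to 1.000 from limma), with 3 higher and 2 lower at an unadjusted p under 0.05, where 7.69% of all clusters were higher and 6.58% lower. Ccn1, a matrix protein of vessels and other tissues that was listed as Cyr61, had the smallest p, with a difference of 0.55 (adjusted p = 0.187 from limma). Without LPS replicate 3 the difference of Ccn1 was 0.62 and passed (adjusted p = 0.0479 from limma). It was the only 1 of the 27 to pass at that setting, where 10.7% of all clusters did. The kinase gene Sik1, which restrains CREB target genes, differed by 0.40, the cyclooxygenase gene Ptgs2 by 0.35 and the stress response gene Gadd45g by -0.40, with the groups apart for all 4 of these genes, as they were for 20.0% of all clusters. Their adjusted p values were 0.275 for Sik1, 0.294 for Ptgs2 and 0.283 for Gadd45g from limma. Of 20 listed upstream kinases and transcription factors, 16 were measured and none passed (adjusted p from 0.276 to 0.994 from limma), with 1 higher and 1 lower at an unadjusted p under 0.05. The smallest p values belonged to Elk1, an SRF partner, at -0.25, Crtc1, a CREB coactivator, at 0.20, Mef2d, a calcium-responsive factor, at 0.16, and Crebbp, the CREB-binding protein, at 0.17. In the effector and upstream lists the median differences were -0.07 and 0.01, and the methods' t-test called none of their genes. With array weights, where 23.4% of all clusters passed, 4 effectors passed as higher (Ptgs2, Dusp1, Sik1 and Ccn1). At that setting 4 passed as lower (Bdnf, Gadd45g, Scg2 and Gem), of which Bdnf and Gem lay under the 95th percentile of the receptor genes on all 6 arrays. Jund and Ier5 also passed as lower and Crtc1 as higher.

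Markers of cell types were set beside these values. None of 10 neuronal genes passed the limma test (adjusted p from 0.436 to 0.949) or had an unadjusted p under 0.05, and the log2 of their summed level lay between 15.64 and 15.68 in PBS mice and between 15.69 and 15.73 in LPS mice. Among markers of regions, no forebrain, striatal or cerebellar gene passed, although without adjustment 1 forebrain and 1 striatal gene had a limma p under 0.05, both with lower means, where 6.58% of all clusters did. Ppp1r1b, a signalling protein of striatal projection neurons, had the largest difference of these, -0.67, with 10.38, 10.49 and 10.50 in PBS mice and 9.56, 9.61 and 10.19 in LPS replicates 1, 2 and 3 (adjusted p = 0.187 from limma). Without LPS replicate 3, where 10.7% of all clusters passed, Ppp1r1b at -0.88, the forebrain gene Lamp5 at -0.37 and the astrocyte gene Gfap at 0.46 passed. With array weights, where 23.4% passed, so did these 3 genes and Drd1, Car8, Mobp, Csf1r, Alas2 and Flt1. Of 5 endothelial genes, 4 passed and were higher, where 0.652% of all clusters did, with differences from 0.85 to 1.04. The log2 of the summed level of the 5 genes lay between 10.19 and 10.35 in PBS mice and between 11.06 and 11.22 in LPS mice. Pecam1 lost its call with median centring (adjusted p = 0.0534 from limma) and without PBS replicate 1, PBS replicate 2, LPS replicate 1 or LPS replicate 2, with differences from 0.95 to 1.09. With the replicate number as a block Pecam1 alone of the 5 passed, and with LPS replicates 1 and 2 both left out Cldn5 alone did. Of 7 measured genes of blood cells, Ptprc, the pan-leukocyte gene, was higher by 0.89 (adjusted p = 0.0155 from limma) and the other 6 did not pass. None of those 6 was above the 95th percentile of the receptor genes on any array, so that their differences are hardly informative. Ptprc was not above the 95th percentile of the receptor genes on any PBS array. Its call was lost without any 1 of the PBS arrays or LPS replicate 1 (differences from 0.83 to 0.93), with the replicate number as a block (adjusted p = 0.0999 from limma) and with LPS replicates 1 and 2 both left out (0.81, adjusted p = 0.124 from limma). None of 6 astrocyte, 5 oligodendrocyte and 5 microglial genes passed, and at an unadjusted p under 0.05 from limma 1 astrocyte and 2 microglial genes were higher and 2 oligodendrocyte genes lower, where 7.69% of all clusters were higher and 6.58% lower. The methods' t-test called no gene of any marker list, endothelial genes included. The part of endothelial or blood cells in the values of Npas4 and Btg2 was not tested.

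**Figure D4:**
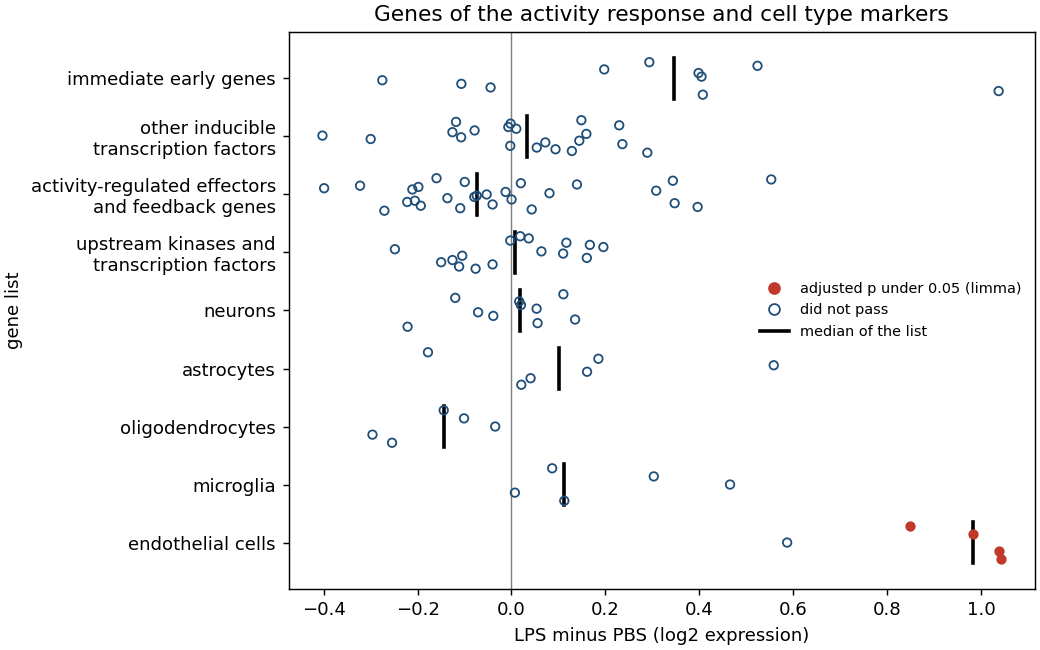
Difference of LPS minus PBS in log2 expression for each measured gene of 9 lists, with open circles for genes that did not pass the limma test, filled circles for those with an adjusted p under 0.05 and a bar at the median of each list. The immediate early genes have a median of 0.35, the other lists of the activity response lie around 0, and the filled circles are 4 endothelial genes (blood cell and regional markers are not drawn).

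The genes whose pattern over the 6 arrays was most like the mean of the 10 genes were picked from 10836 genes outside these lists with a mean level above the median of all clusters. They were Adap2, Nsrp1, Ssbp3, Cyb561d1 and H2bc21, with Pearson r from 0.96 to 0.99. Adap2 had log2 expression of 7.18, 7.30 and 7.50 in PBS replicates 1, 2 and 3, and 7.55, 7.34 and 7.72 in LPS replicates 1, 2 and 3, with the same order of mice within each group as Fos. The 5 genes with the most opposite pattern were Neurl1b, Haghl, Gm5577, Neu4 and Paxip1, with r from -0.97 to -0.94. These are the extremes of many genes over 6 arrays, 3 of each group, and are given as a description. None of the 10 passed the limma test (adjusted p from 0.422 to 0.783).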

How the data were processed

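Whole brain RNA from 3 LPS-treated mice and 3 vehicle-treated controls was measured with 1 array per mouse. The values are the log2 expression values deposited by the authors after RMA, a background correction with between-array normalization and probe summary, and of the 2 RMA versions in the methods they correspond to the one adjusted for GC content, whose group differences they give. No further normalization or filter was applied. Precision is limited by having 6 arrays, and detection calls were not used here. Cluster names come from the platform annotation (symbols brought up to date by gene ID), and the brightest cluster that names a gene alone stood for it. Groups were compared by limma 3.58.1 (lmFit, then eBayes; R 4.3.3) in a two-sided test, and p values were adjusted by Benjamini-Hochberg across all 35556 clusters, passing under 0.05. The methods' t-test is the unpaired t test, run on the same values. In the methods that test was applied to the other RMA version, and the version used here was tested by one-way ANOVA. Counts given here for the methods' t-test are therefore not the counts of the study. The procedure was tested on simulated data. In each list other than the 10 genes, up to 4 genes with the smallest p are named, and likeness was the Pearson r with the mean of the 10 genes after centring each gene, for the 5 highest and 5 lowest genes. The 10 genes, the lists and the alternatives were chosen with earlier results of these data known. Promoter windows were read from RefSeq on GRCm38.p6 and motifs were searched on both strands in the 250 bases before each start.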

Additional observations from a re-analysis of the deposited data

How the results depend on the processing

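Of the 10 genes 0 passed in the reported test, 1 (Btg2) when the 21789 clusters naming 1 gene were tested alone, 1 (Btg2) at an adjusted p under 0.1, 2 (Npas4 and Btg2, adjusted p = 0.0130 and 0.00448 from limma) with array weights, under which 23.4% of all clusters passed, and 0 to 1 when each array was left out in turn. The adjusted p of Npas4 lay between 0.0130 and 0.566 over the alternatives and that of Btg2 between 0.00448 and 0.364, and for both genes all 16 alternatives kept the direction. The difference turned to 0.062 for Fosb, 0.17 for Ier2 and 0.13 for Junb with LPS replicates 1 and 2 both left out, and to 0.064 with array weights for Junb, which lay between -0.13 and 0.10 when each array was left out in turn, and none of these passed. Ier2 was not tested when the 40% dimmest clusters were left out. Over all clusters, 232 higher and 22 lower became 141 and 10 with median centring, 4 and 1 with the methods' t-test, 4751 and 3572 with array weights, 71 and 12 with LPS replicates 1 and 2 both left out, and 356 and 64 at an adjusted p under 0.1. Those lower were 13 after quantile normalization and 61 among clusters naming 1 gene. Leaving out 1 array gave 74 to 2640 higher and 0 to 1152 lower, the largest counts being those without LPS replicate 3. With the replicate number as a block there were 76 higher and 4 lower, and none of the 10 genes passed. The deviations of same-numbered samples from their group means correlated at 0.09, -0.05 and 0.10 over clusters, and those of differently numbered samples at -0.17 to 0.15. With 3 arrays per group these values cannot show whether same-numbered samples were handled together, and the labels give only a number.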
